A study of Mus musculus with 14 samples.

Results

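The regions described here are 3286 distal stretches of chromatin that were called accessible only in the middle of a time course of GATA6 induction. No library listed them at the start, both libraries first listed them at 16 h or 24 h, and no library listed them at 48 h. They were chosen by their measured calls. Peaks of all 14 libraries on the autosomes were merged where they overlapped by at least 1 bp, and a region counted as called in a library that listed any peak in it. Distal means that the midpoint lay more than 1 kb from every protein-coding transcription start site (TSS). A transient distal region was called in no 0 h and no 48 h library, and the earliest time point at which both libraries called it was 16 h or 24 h. These regions made up 3.22% of the 102165 distal regions. Of them, 2712 (82.5%) started at 16 h and 574 (17.5%) at 24 h.

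Cells of the KH2 line, mouse embryonic stem (ES) cells of C57BL/6 strain label, were used, all carrying a TRE:GATA6-DSREd2 transgene, in which a doxycycline (Dox)-responsive element drives GATA6 together with a red fluorescent protein. The line held 1 copy of the transgene, and cells were not sorted. Cells at 0 h had grown in 2i medium with LIF, which holds ES cells in a naive state, and had received no Dox. Cells at 2, 4 and 8 h were in serum medium with LIF and Dox at 1 µg/mL until collection. For 16, 24 and 48 h, Dox was withdrawn after 12 h and the culture went on in serum medium, so that 16 h lay 4 h after Dox removal. Each of the 7 time points had 2 ATAC-seq libraries of 50000 cells. Medium, Dox and time changed together, so their effects cannot be told apart. The sources used here do not say whether the 2 libraries came from separate cultures, so the spread between them may be technical.

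In ATAC-seq a transposase cuts open DNA, and a peak marks a place where cuts accumulate. GATA6 is a zinc finger transcription factor that directs inner cell mass cells to the primitive endoderm (PrE), which later lines the yolk sac, and away from the epiblast (Epi), which ES cells resemble. It binds a short GATA motif and can open nucleosome-covered DNA. Distal cis-regulatory elements (CREs) open and close as transcription factors come and go. Openness alone does not show that an element acts on a gene.

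The deposited lists held 55588 to 65073 peaks per library, most of them at 16 h (61857 and 65073), and at every time point the second replicate had the longer list. They contain no read counts, so depth is unknown from them, and a region missing from a list may have been open below its threshold. The part of depth in the calls at 16 h was not tested. Promoter calls set the labels apart little, with 3 to 5 of 5 ES cell or Epi markers and 4 or 5 of 5 PrE markers called per library. In bulk cells, fewer cells with an open region and less opening per cell cannot be told apart.

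A set of 16 loci chosen by call pattern and score shows what these regions look like. Of the loci listed by each 16 h and each 24 h library and by none of the others, the 8 with the highest score in their lowest library were taken, with the leading 4 loci called only at 16 h and 4 only at 24 h. The central 200 bp of 6 of these are printed from RefSeq's GRCm38 sequence, 2 from each class, to show loci with and without GATA or KLF motif words. Words of the other motifs searched are not marked. Capitals mark GATA motif words (AGATAA or TGATAA or AGATAG or TGATAG, or their reverse complements) and KLF motif words (CCACACCC or CCCCACCC, or their reverse complements).
16 h and 24 h region 1, chr6:31617386-31617585, plus strand: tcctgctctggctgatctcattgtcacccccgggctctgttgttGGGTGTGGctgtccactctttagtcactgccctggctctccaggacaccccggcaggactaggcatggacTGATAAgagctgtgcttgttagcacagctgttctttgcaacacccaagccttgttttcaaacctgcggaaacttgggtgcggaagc
16 h and 24 h region 3, chr13:55983296-55983495, plus strand: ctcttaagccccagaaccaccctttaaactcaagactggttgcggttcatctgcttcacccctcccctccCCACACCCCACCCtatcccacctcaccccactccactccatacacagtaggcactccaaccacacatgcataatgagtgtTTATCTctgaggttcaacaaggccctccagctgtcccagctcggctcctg
16 h only region 1, chr9:121452666-121452865, plus strand: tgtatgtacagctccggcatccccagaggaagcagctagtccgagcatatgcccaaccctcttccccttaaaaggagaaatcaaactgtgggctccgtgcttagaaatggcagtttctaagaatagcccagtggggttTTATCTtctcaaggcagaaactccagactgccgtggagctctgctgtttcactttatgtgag
16 h only region 4, chr4:98348413-98348612, plus strand: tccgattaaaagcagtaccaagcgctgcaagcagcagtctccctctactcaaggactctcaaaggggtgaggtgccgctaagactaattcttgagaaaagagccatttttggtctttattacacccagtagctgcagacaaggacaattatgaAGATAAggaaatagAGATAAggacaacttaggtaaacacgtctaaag
24 h only region 1, chr19:10013067-10013266, plus strand: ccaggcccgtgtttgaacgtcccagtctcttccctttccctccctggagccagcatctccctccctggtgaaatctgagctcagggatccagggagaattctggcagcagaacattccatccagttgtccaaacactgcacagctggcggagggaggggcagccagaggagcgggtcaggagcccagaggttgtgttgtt
24 h only region 3, chr15:100112383-100112582, plus strand: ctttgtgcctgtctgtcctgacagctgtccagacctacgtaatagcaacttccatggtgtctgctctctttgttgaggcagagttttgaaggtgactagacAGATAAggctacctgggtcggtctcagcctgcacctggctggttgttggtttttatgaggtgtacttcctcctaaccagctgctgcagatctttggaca

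The highest ranking locus of the class called at both time points was chr6:31617311-31617661, in an intron of the non-coding gene Gm43154. The nearest protein-coding TSS, 53.5 kb away, belonged to Podxl, which encodes the sialomucin podocalyxin. Its peaks stood at the 63.8th and 68.8th score percentile of the 16 h lists and at the 68.1st and 69.7th of the 24 h lists. A score percentile gives the place of a peak among all autosomal peaks of its own library. This locus was above the middle of all 4 lists and in none of the other 10. Its printed sequence held 1 GATA word and 1 KLF word.

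At chr13:55983168-55983623, in an intron of Gm47071 and 147 kb from the TSS of Pitx1, a homeobox factor of hindlimb and pituitary, the percentiles were the 71.6th and 75.0th at 16 h and the 67.3rd and 56.7th at 24 h. This locus ranked lower in each 24 h library than in either 16 h library. Another 4 of the 8 lay near Ccdc81, Smco4, Klf13 and Chst5, with percentiles between the 50.9th and the 78.7th.

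The loci called only at 16 h were taken from 973 and those called only at 24 h from 265, so that their leading values are not comparable. The leading one at 16 h, chr9:121452453-121453079, lay in an intron of Trak1, an adaptor for mitochondrial transport, 1.53 kb from its TSS, at the 74.8th and 77.4th percentile. The others of this class were in an intron of Dpp6, in an exon of Psmb10 with the TSS of Ctrl nearest, and 34.5 kb from the TSS of Tm2d1, all between the 66.5th and the 74.4th. The leading locus called only at 24 h, chr19:10013044-10013289 in an intron of Rab3il1, stood at the 48.7th and 48.1st, and those nearest to Ermp1, Dip2b and Tln2 between the 40.6th and the 48.4th. Of the 16 loci, 9 held at least 1 GATA word in the central 200 bp.

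The transient regions fell into 5 classes by their calls at 16 h and 24 h. Both 16 h libraries and no 24 h library called 1427 (43.4%), both 16 h and 1 of the 24 h libraries called 653 (19.9%), and all 4 called 632 (19.2%). A further 257 (7.82%) were called in both 24 h libraries and 1 at 16 h, and 317 (9.65%) in both 24 h libraries and no 16 h library. Earlier single calls are left aside in these classes, and with them counted, 973 regions were called in the 16 h libraries alone, 265 in the 24 h libraries alone and 404 in exactly these 4. These counts follow from the rule together with the calls. For reading them, 6.11% of all distal regions were called in both 16 h libraries and in no 0 h or 48 h library, and 2.33% in both 24 h libraries and in no 0 h or 48 h library.

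The 24 h calls of regions that started at 16 h took no part in choosing them. Of the 2712, 23.3% were called in both 24 h libraries, 24.1% in 1 and 52.6% in neither. The 2 libraries at 24 h called 34.4% and 36.3% of them, close to the 36.1% and 37.4% of all distal regions that they called. The comparison set was made of distal regions that also started at 16 h or 24 h and were absent at 0 h but were called in both 48 h libraries, 4535 in all and referred to here as kept regions. Of the 2517 kept regions that started at 16 h, the 24 h libraries called 90.3% and 91.1%, and 85.5% were called in both. The sets were much farther apart than the 24 h libraries were within either set. The sets differ by rule in their 48 h calls, and that choice bears on the 24 h calls too. This difference was not tested, because 2 libraries allow no test under 0.05.

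**Figure D1:**
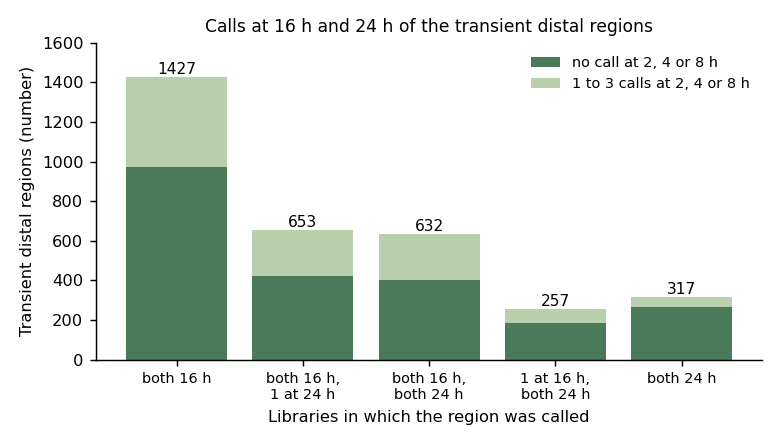
Number of transient distal regions (vertical axis) by the libraries of 16 h and 24 h that called them (horizontal axis), with the regions split by whether any library of 2, 4 or 8 h called them. The largest class, with 1427 regions, was called in both 16 h and no 24 h library, and 632 regions were called in all 4 libraries.

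Single calls before 16 h were allowed by the rule as long as both libraries of a time point did not share them. No library of 2, 4 or 8 h called 2250 regions (68.5%), while 742 (22.6%) had 1 such call, 238 (7.24%) had 2 and 56 (1.70%) had 3. The libraries called 2.25% and 3.16% at 2 h, 4.90% and 7.52% at 4 h, and 14.1% and 10.3% at 8 h, against 84.9% and 88.0% at 16 h and 45.9% and 47.4% at 24 h. Early calls were most numerous at 8 h and ranked low in their lists, with median score percentiles of 9.17 to 14.1. Transient regions had early calls more often than kept regions in 6 of 6 libraries, with 7.03% ± 4.53 against 5.80% ± 4.41 (SD, n = 6 libraries). This difference of 1.23 percentage points did not pass adjustment (exact two-sided sign-flip permutation test over libraries, 2 of 64 arrangements as extreme, the fewest possible, adjusted p = 0.0625). Limited to regions that started at 16 h it was 0.216 percentage points (exact permutation p = 0.781), and with the 50000 highest scoring peaks per library it was 0.519 (exact permutation p = 0.281). It was 1.13 with peaks up to 100 bp apart merged and 1.07 with gene starts only (exact permutation p = 0.0625 for each).

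To read the regions in libraries that did not define them, the same rule was applied to the 7 libraries of 1 replicate number and read in the 7 of the other. Replicate 1 alone gave 6174 regions and replicate 2 alone 7086. The held-out libraries called 40.4% and 51.6% of these at 16 h, 26.9% and 33.8% at 24 h and 10.9% and 15.2% at 48 h. At 0 h they called 4.66% and 7.16%, at 2 h 2.07% and 4.02%, at 4 h 4.05% and 6.33%, and at 8 h 10.7% and 10.97%. Every 16 h and 24 h library thus lay above every other library. Over all distal regions the same libraries called 41.6% and 46.0% at 16 h and 36.1% and 37.4% at 24 h, and the other 10 called 35.4% to 43.96%. The chosen regions were thus called more often than all distal regions in 1 of the 16 h and 24 h libraries (51.6% against 46.0%), less often in the other 3, and far less often at the other time points. The 4 libraries of 16 h and 24 h averaged 38.2% ± 10.5 and the other 10 averaged 7.61% ± 4.16 (SD), a difference of 30.6 percentage points (exact two-sided permutation test over libraries, p = 0.000999, the smallest that the arrangements allow, adjusted p = 0.00400). This test treats the 14 libraries as separate, though the 2 of a time point may not be. With 1 library per time point the difference did not pass adjustment, as given further below. The regions were chosen for this pattern in the other replicate number, so the test shows only that calls recurred between replicate numbers.

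**Figure D2:**
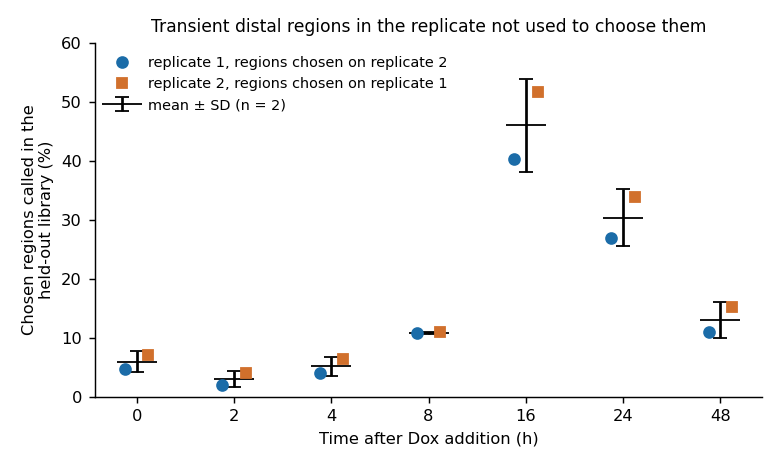
Percent of transient distal regions chosen on the libraries of 1 replicate number that were called in the library of the other number (vertical axis) at each time after Dox addition (horizontal axis), with points for libraries and bars for the mean ± SD (n = 2). The 16 h libraries stand at 40.4% and 51.6% and the 24 h libraries at 26.9% and 33.8%, above all others.

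The absence at the end points did not always hold in a library that was left out of the rule. When 1 of the 0 h libraries was left out of the merging and of the rule, it called 6.70% or 8.01% of the regions then chosen (7.35% ± 0.923, SD, n = 2). When 1 of the 48 h libraries was left out, it called 14.4% or 16.98% (15.7% ± 1.85, SD, n = 2). Over all distal regions the 0 h libraries called 39.1% and 40.9% and the 48 h libraries 35.4% and 37.1%. With all libraries merged, which sets slightly different region borders, 512 of the distal regions that met the rest of the rule had 1 call at 0 h and 1205 had 1 call at 48 h, with median score percentiles at 16 h and 24 h of 22.4 and 25.4, beside 22.7 for the transient regions. On the other limit of the rule, 25 transient regions lay just over 1 kb and up to 1100 bp from a TSS (median percentile 23.0) and 23 regions lay 900 to 1000 bp away and were left out (21.3).

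Peaks of transient regions ranked lower and were narrower than those of kept regions in all 4 libraries of 16 h and 24 h. The sets differ by rule in their 48 h calls, and that choice bears on rank and width. The test below cannot tell a difference apart from the choice of regions. Their median score percentile was 22.04 and 28.8 at 16 h and 18.5 and 20.1 at 24 h, while that of kept regions was 34.0 and 38.3 at 16 h and 42.4 and 43.5 at 24 h. All distal regions called in these libraries had medians of 44.3 to 45.6. The means of these medians were 22.4 ± 4.54 and 39.5 ± 4.29 (SD, n = 4 libraries), a difference of -17.2 percentile points. The library medians did not overlap, though single regions of the sets can. In the exact two-sided sign-flip permutation test, 2 of 16 arrangements were as extreme, the fewest possible with 4 libraries, so that the design cannot reach 0.05. Median peak width was 360 ± 33.1 bp against 404 ± 14.1 bp (SD, n = 4 libraries), a difference of -43.8 bp in the same direction in 4 of 4 libraries (again 2 of 16 arrangements). Limited to regions that started at 16 h, the differences were -23.4 percentile points and -57.8 bp.

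**Figure D3:**
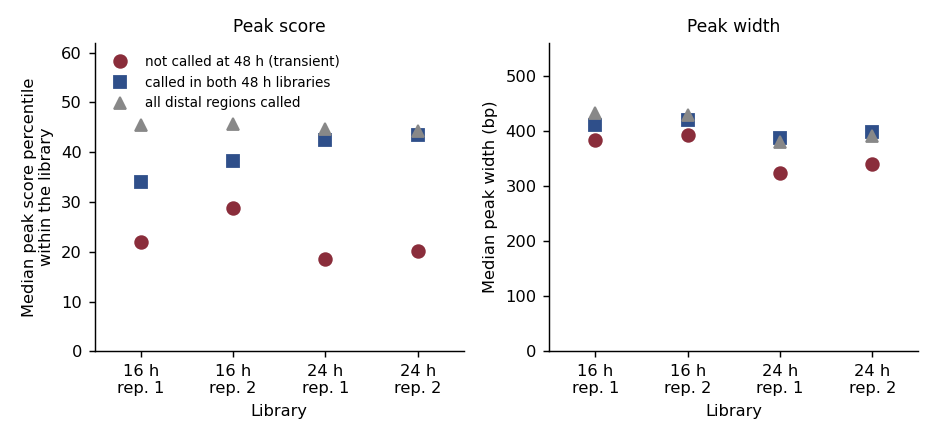
Median score percentile (left) and median peak width in bp (right) of called regions in each library of 16 h and 24 h (horizontal axis) for transient, kept and all distal regions. Transient regions lie lowest in each library, at percentiles of 18.5 to 28.8 against 34.0 to 43.5 for kept regions.

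The gap was wider at 24 h than at 16 h. Among regions called in all 4 libraries, the 632 transient ones had median percentiles of 36.4 and 42.7 at 16 h, close below the 40.6 and 47.6 of the 2152 kept ones. At 24 h the transient ones stood at 26.8 and 28.2, and the kept ones at 55.1 and 56.3. At 24 h the sets differed by far more than the 2 libraries did, and at 16 h by less. Peak widths of the same transient regions were 404 and 408 bp at 16 h and 355 and 371 bp at 24 h, and those of the kept regions were 430 and 437 bp and then 432 and 438 bp. The median width of all peaks was also smaller in the 24 h lists, at 392 and 407 bp against 446 and 447 bp at 16 h. These values were not tested, and the choice of regions by their 48 h calls bears on them.

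GATA words were more frequent in transient regions than in distal regions at large. The central 200 bp held 1 or more in 50.5% of transient regions and in 39.5% of all distal regions, which include them, or 36.1% when the latter were weighted to the G+C content of the former. With sets defined on replicate 1 alone and on replicate 2 alone, the shares were 45.7% ± 1.82 and 39.8% ± 0.164 (SD, n = 2 sets). A permuted control motif (AAGTAA or TAGTAA or AAGTAG or TAGTAG) was found in 20.5% and 22.8%. Kept regions had GATA words in 56.1% and transient regions that started at 4 or 8 h in 74.0%, while transient regions that started at 2 h had them in 41.8%. Among the 3 transient sets, those starting at 16 h or 24 h were thus intermediate. At least 2 words were present in 16.9% of them, against 22.9% of kept regions, 39.8% of transient regions from 4 or 8 h and 13.3% of all distal regions. Regions share libraries and sequence families and are not replicates, so motif shares are given with no test. A match is a description of the sequence, not evidence of binding.

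**Figure D4:**
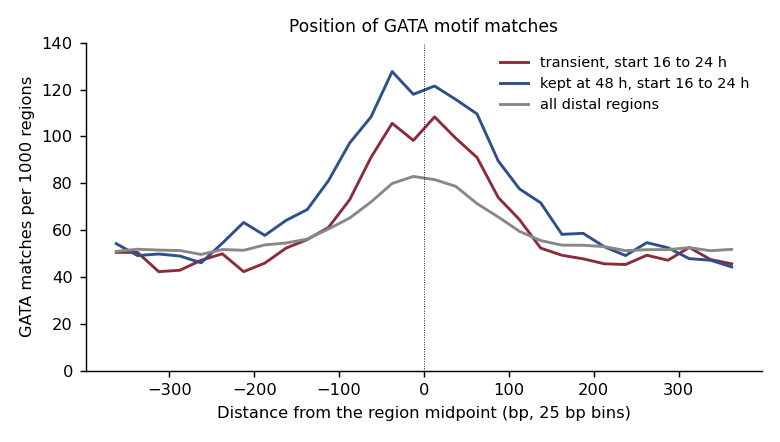
GATA motif matches per 1000 regions (vertical axis) in bins of 25 bp by distance from the region midpoint in bp (horizontal axis). Transient regions reach 108 matches per 1000 regions near the midpoint, kept regions 128 and all distal regions 82.9. In bins centred 312.5 to 362.5 bp away the sets lie between 42.3 and 54.2.

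GATA words were not spread evenly among the transient regions. They were found in 52.4% of those that started at 16 h and in 41.3% of those that started at 24 h, where the weighted share of all distal regions was 37.4%. In order of call pattern, the share was 54.3% for regions called in both 16 h and no 24 h library, 52.8% with 1 call at 24 h, 47.8% for those called in all 4 libraries, 42.0% for 24 h with 1 call at 16 h and 40.7% for both 24 h and no 16 h library, with earlier calls left aside. The share was lower the later the calls. The permuted words went from 19.0% to 23.7% over the same classes. The sequences printed above for Trak1, with 1 word, and for Tm2d1, with 2, are of the class with the highest share. Those of Rab3il1, with none, and of Dip2b, with 1, are of the class with the lowest, so these examples do not show the trend.

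The AP-1 motif (TGACTCA or TGAGTCA), bound by Fos and Jun dimers, was rare. It was found in 2.95% of transient regions, 3.29% of kept regions and 10.4% of all distal regions. Transient regions that started at 2 h had it in 47.5% and those from 4 or 8 h in 11.5%. With the sets of a single replicate number, the shares were 2.57% ± 0.0363 for transient regions from 16 h or 24 h and 41.6% ± 0.395 for those from 2 h (SD, n = 2 sets). Of the motifs searched, this one differed most between the transient regions from 2 h and those from 16 h or 24 h. None of the 16 loci described above had an AP-1 word in its central 200 bp.

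The KLF motif, bound by Kruppel-like factors such as KLF4 of naive ES cells, was found in 20.0% of transient regions. Kept regions had it in 11.9%, transient regions from 2 h in 11.2%, those from 4 or 8 h in 12.3% and all distal regions in 12.9%. Weighting to G+C content, which was 51.0% in transient regions and 49.5% in all distal regions (medians), brought the distal share to 14.2%. In the sets of 1 replicate number, the share was 19.3% ± 0.328 in transient regions, 11.5% ± 0.362 in kept regions and 13.1% ± 0.0619 in all distal regions (SD, n = 2 sets). By call pattern it was 18.6%, 17.8%, 24.2%, 19.07% and 22.7% in the order given for GATA. Regions starting at 16 h and at 24 h had similar shares (19.7% and 21.1%). The sequences printed for the loci nearest to Podxl and Pitx1 held KLF words beside a GATA word, 1 near Podxl and 2 that overlap near Pitx1. This motif was singled out from the 16 searched after its values were seen.

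Motifs of endoderm factors were less frequent in transient than in kept regions. The SOX motif (ACAATG or ACAAAG), which SOX17 and SOX2 can bind, was found in 31.6% of transient regions, 43.4% of kept regions and 33.4% of all distal regions. The FOX motif (TGTTTAC or TATTTAC), bound by FOXA factors, was found in 6.42%, 11.3% and 5.64%, and the HNF1 motif in 0.426%, 2.67% and 0.732%. In the sets of 1 replicate number the SOX shares were 30.5% ± 0.358 and 42.3% ± 0.0671 in transient and kept regions, and the FOX shares 6.95% ± 0.113 and 10.9% ± 0.159 (SD, n = 2 sets). Transient regions that started at 24 h were higher in FOX (8.89%) and TEAD (CATTCCA or CATTCCT, 15.0%) and lower in SOX (24.2%) than those that started at 16 h (5.90%, 10.3% and 33.2%).

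The E-box bound by SNAIL and ZEB factors (CAGGTG) was found in 21.2% of transient, 16.6% of kept and 18.04% of all distal regions, TEAD in 11.1% and 11.8%, and the core of the CTCF site (AGGGGGC and its variants) in 18.4% and 20.2%. The octamer bound by OCT4 was in 4.60% and 4.41%, and in 2.18% of kept regions. ETS (CCGGAA, 3.32% and 4.18%), TCF/LEF (ATCAAAG, 2.25% and 3.96%) and nuclear receptor sites (AAGGTCA, 4.41% and 6.15%) were somewhat less frequent in transient regions. T-box (1.40% and 1.35%) and CArG box (1.10% and 0.909%) words were rare in both. All motifs were sought on both strands and could overlap each other.

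**Figure D5:**
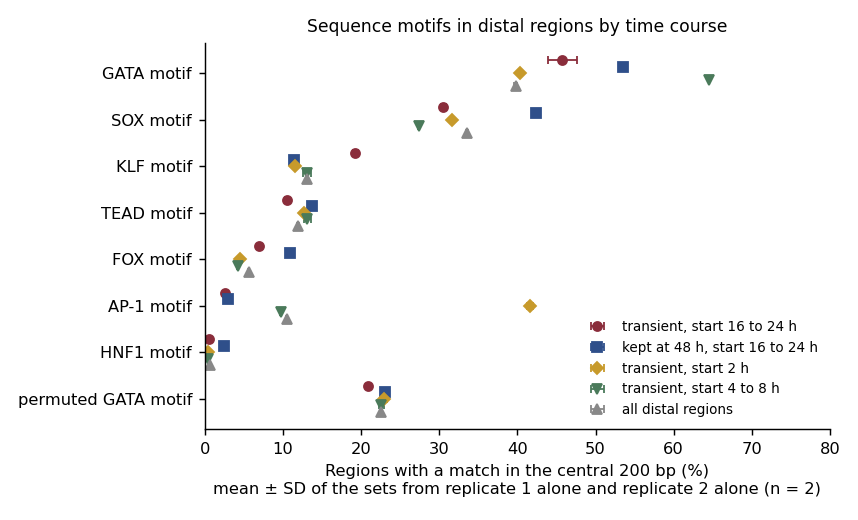
Percent of regions with a motif match in the central 200 bp (horizontal axis) for 8 motifs (vertical axis) and 5 sets of distal regions, as mean ± SD of the sets defined on each replicate number alone (n = 2). Transient regions from 16 h or 24 h lie above the other sets for KLF, at 19.3%, and transient regions from 2 h stand apart for AP-1, at 41.6%.

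In their place in the genome the transient regions were much like other distal regions. Introns held 51.5%, exons 8.06% and intergenic sequence 40.5%, against 51.4%, 7.64% and 40.9% of all distal regions. The median distance to a protein-coding TSS was 22.8 kb against 24.0 kb. Merged regions were narrower, with a median of 425 bp against 466 bp for all distal and 507 bp for kept regions. Sequence marked as repeat covered more than 50% of the central 200 bp in 6.54%, against 5.41% of all distal and 3.84% of kept regions. The share of distal regions that were transient in this way ranged from 2.53% on chromosome 14 to 4.06% on chromosome 5.

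Transient regions lay near each other and near other accessible sites more often than distal regions at large. Another transient region was within 10 kb of 9.62% of them, against 6.58% of all distal regions. A kept region was within 10 kb of 10.1% against 8.46%. A region called in 48 h libraries was as close to 55.9% against 49.2%, and a region called at 0 h to 56.4% against 51.3%. Of the kept regions, 13.4% had another kept region and 57.9% a region called at 48 h within 10 kb, more than the transient regions. A transient region was that close to 7.67% of them and a region called at 0 h to 51.4%, less than for the transient regions. These shares were not tested.

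Each region took the name of the gene with the nearest protein-coding TSS within 50 kb, which names a neighbour and not a target. This placed 2300 regions (70.0%) at 1957 genes, of which 287 had 2 or more and none had more than 4. The 8 genes with 4 regions are named, with 7 of the 40 that had 3, those with the highest ranking region. Of the genes with a transient region, 27.2% also had a kept region, against 16.9% of genes with any distal region. Genes with many distal regions have more chances of both, and this was not adjusted for.

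A group lay upstream of Adpgk, which encodes an ADP-dependent glucokinase. All 4 of its transient regions, spread over 14.2 kb on chromosome 9 and 31.6 to 45.8 kb from its TSS, were called in every 16 h and 24 h library and in none of the other 10. They were 4 of 12 distal regions assigned to the gene, and 2 of them lay less than 100 bp apart. The farthest, chr9:59245437-59246032, stood at the 65.9th and 47.4th percentile at 16 h and the 48.5th and 31.5th at 24 h. No other of these 15 genes had all of its own called in all 4 libraries, except Itga6.

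Itga6 encodes the integrin alpha subunit that pairs with beta partners to bind laminin, a basement membrane protein that PrE cells make. Its 3 transient regions lay in introns on chromosome 2, each with a GATA word in the central 200 bp. The strongest, chr2:71757022-71757535, was 29.7 kb from the TSS and stood at the 50.8th and 63.4th percentile at 16 h and the 70.2nd and 66.8th at 24 h. That at chr2:71805779-71806071 had the 60.9th, 45.5th, 39.8th and 31.2nd in the same order. The 8 h replicate 1 library called 2 of the 3. The same gene also had 2 kept regions assigned to it.

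Tcf7l1 encodes a TCF factor that represses Wnt targets in ES cells. Its 4 transient regions all started at 16 h, and 3 held a GATA word. The 16 h libraries called all 4, the 24 h libraries called 1 and 0, and the 8 h libraries called 0 and 1. The strongest, chr6:72774333-72775004, stood at the 28.3rd and 58.7th percentile at 16 h and at the 8.45th in the 24 h library that called it. Sulf1, a sulphatase that trims heparan sulphate, had 4 regions starting at 16 h, of which the 24 h libraries called 2 and 1. St3gal3, a sialyltransferase gene, also had 4 starting at 16 h, with 1 called in each 24 h library.

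Among genes of pluripotent cells, Esrrb, an orphan nuclear receptor of the naive network, had 3 transient regions in introns, none with a GATA word in the central 200 bp. The strongest, chr12:86387636-86388006, stood at the 64.3rd and 61.6th percentile at 16 h and the 48.6th and 46.3rd at 24 h. It was also called in 2 single libraries before 16 h. Zfp281, a zinc finger factor of pluripotent cells, had 3 intergenic regions starting at 16 h. That at chr1:136598182-136598721 reached the 54.2nd and 65.4th percentile at 16 h and was in neither 24 h list, after 2 single early calls. Klf4 had 2 regions and 4 kept ones, and Prdm14, which represses germ layer genes in ES cells, had 2 and no kept one. In all, 7 of the 20 matched naive pluripotency genes had 11 transient regions, 0.335% of the set beside 0.267% of all distal and 0.397% of kept regions. In the sets of a single replicate number the share was 0.302% ± 0.00805 (SD, n = 2 sets).

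Abt1, whose product activates basal transcription, differed from the others in that 3 of its 4 regions started at 24 h, and the 24 h libraries called 3 and 4 of them against 1 in each 16 h library. Ssbp3, a cofactor of LIM-domain complexes, had 3 regions from 16 h and 1 from 24 h, with 3 of them lying close together upstream. Myl10, a myosin light chain gene, and Nol4l each had 4 regions, of which 3 started at 16 h. Bcr, Smco4, Dmrt1 and H6pd had 3 regions each.

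Of the factors and receptors of the PrE, 13 of 23 had a transient region, 18 regions in all or 0.548% of the set against 0.291% of all distal regions. Kept regions had a higher share, 0.595%. In the sets of a single replicate number the share was 0.442% ± 0.0856 in transient and 0.544% ± 0.0905 in kept regions (SD, n = 2 sets). Genes with more distal regions have more chances of a transient one, and the gene count was not adjusted for this. Pdgfra, the receptor by which PrE cells are sorted, had 2. The first was at chr5:75149878-75150298, 2.20 kb from a TSS, at the 46.7th and 45.5th percentile at 16 h and the 7.86th in 1 of the 24 h libraries. The other lay farther out on the same side, 12.0 kb from this TSS and in an intron of another annotated gene. It stood at the 22.8th and 21.8th percentile at 16 h only. Laminin subunit genes Lamb1 and Lamc1 had 2 each. That at chr1:153269789-153269985 near Lamc1 was uneven between the 24 h libraries, at the 15.2nd and 95.7th percentile, and had 3 early calls. Gata4 and Gata6 had 1 transient region each.

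The wider lists of PrE and Epi genes that the study took from blastocyst single cells did not set the transient regions apart from other distal regions. Of 570 matched PrE genes, 95 had a transient region, and the 113 regions were 3.44% of the set against 3.35% of all distal and 6.04% of kept regions. For the Epi list, 40 of 218 matched genes had 50 regions, or 1.52% against 1.64% and 1.17%. In the sets of a single replicate number, transient regions had 3.47% ± 0.0782 at PrE genes and kept regions 5.39% ± 0.0232 (SD, n = 2 sets). Among PrE genes, Bend5, Lamc1 and Fgfr2 had 2 each. The Fgfr2 region chr7:130252042-130252471 stood at the 53.5th and 63.6th percentile at 16 h and the 54.9th and 35.0th at 24 h. This receptor receives the FGF signal that favours PrE. Among Epi genes, Ifitm3 had 3 regions, and Zfp428 and Itpk1 had 2 each. The Zfp428 region chr7:24495303-24495673 stood at the 71.7th and 69.3rd percentile at 16 h and the 33.3rd and 32.6th at 24 h.

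Genes of the extracellular matrix and adhesion had 17 regions at 11 of 25 genes, 0.517% against 0.278% of all distal regions, led by Itga6 and Itga3, another laminin-binding integrin, with 3 each. The share in the sets of 1 replicate number was 0.384% ± 0.144 (SD, n = 2 sets), a spread larger than the gap to all distal regions. Genes of the primitive streak and definitive endoderm had 7 regions at 5 of 17 genes (0.213% against 0.0989%). They included Foxa2, an endoderm pioneer factor, and Wnt3, a ligand of streak formation, with 2 each, and Cxcr4, a chemokine receptor. The Cxcr4 region chr1:128602077-128602598 stood at the 70.4th and 71.1st percentile at 16 h and the 44.6th and 39.7th at 24 h. The Wnt pathway, a list that also holds Wnt3, had 12 regions at 8 of 24 genes (0.365% against 0.231%, and 0.287% of kept regions). In the sets of 1 replicate number its share was 0.283% ± 0.0808 (SD, n = 2 sets), a spread again larger than the gap to all distal regions. The Wnt11 region chr7:98849183-98849705, with 2 kept regions at the same gene, was at the 50.7th and 51.6th percentile at 16 h and the 61.3rd and 64.4th at 24 h.

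The remaining lists held few regions. FGF, ERK and feedback genes had 11 regions at 9 of 27 genes (0.335% against 0.257%). Dusp4, a phosphatase that limits ERK, had the region of highest place among these, at the 83.3rd and 75.0th percentile at 16 h and the 26.1st in 1 of the 24 h libraries (chr8:34804740-34805435). Actin and SRF target genes had 8 (0.243% against 0.241%), visceral and parietal endoderm genes 7 (0.213% against 0.161%), and Nodal, TGF-beta and BMP genes 7 (0.213% against 0.205%). Formative and primed epiblast genes had 6 (0.183% against 0.135%), the Hippo pathway 3 (0.0913% against 0.179%), the retinoid pathway 3 (0.0913% against 0.104%), AP-1 factor genes 2 (0.0609% against 0.0754%) and trophectoderm factors 1 (0.0304% against 0.119%). With so few regions a list's share rests on single loci.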

How the data were processed

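ATAC-seq was performed by the authors on 14 libraries, 2 at each of 7 time points. Per the labels and the study's methods, reads were processed with the ENCODE ATAC-seq pipeline on GRCm38. The deposited lists give, per library, peaks kept by a reproducibility filter on pseudoreplicates, so replicates were not pooled. The only deposited value is a score per peak, with no header or scale, which served solely to rank peaks within a library. The lists hold no counts, so no interval that needs depth is given.

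Merging, calls, annotation with GENCODE M21 and motif searches in 200 bp of RefSeq sequence were done with Python 3.11.15, numpy 2.4.6, pandas 2.3.3 and scipy 1.17.1. Computations were tested on simulated data. Comparisons used exact permutation tests over libraries, with Benjamini-Hochberg adjustment over 4 tests, and alternatives varied peak, merging, coverage and TSS limits. Named loci had the highest lowest-library percentile of their class, and named genes were the 15 with most regions and up to 3 per list. Regions, lists and motifs were chosen with earlier results of these data known. Chromosomes X and Y were left out, and 2 of the named loci are not reported here.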

Additional observations from a re-analysis of the deposited data

How the results depend on the processing

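Over 12 results, 101 alternatives were computed. Only the 4 tested differences have a direction that could reverse, and none did. Of 79 alternatives that left out no replicate, 52 gave the same result and 27 moved. Of 22 that left out a replicate, 6 gave the same result, 14 moved and 2 were weaker, with an adjusted p no longer under 0.05. A share counted as moved when it changed by at least the SD between the sets of a single replicate number. A tested difference counted as the same when its sign held and its adjusted p stayed on the same side of 0.05. Score rank and peak width cannot reach 0.05 with 4 libraries or fewer, so for them this label reports only the sign. Early single calls also counted as the same where the difference fell from 1.23 to 0.216 percentage points. The number of transient distal regions stayed between 2250 and 3808 under 6 alternatives and rose to 6174 to 7086 when a replicate was left out, as the rule then asked for calls in fewer libraries. The GATA share of 50.5% was 52.5% with the 50000 highest scoring peaks per library, 47.8% for regions with no call at 2, 4 and 8 h, 68.4% in whole regions, 20.5% for the permuted motif, and 44.5% to 47.0% without a replicate. The AP-1 share of 2.95% became 3.29% with the 50000 peaks, 2.74% with peaks up to 100 bp apart merged, 3.20% with 50% coverage, 2.31% with no early call, 7.06% in whole regions, and 2.54% to 2.59% without a replicate. The KLF share, followed under alternatives added after the data were seen, was 19.0% to 20.9%. The differences limited to regions from 16 h and the weighting to G+C content were also added then. Early single calls could not be computed with 1 replicate or with no early call allowed.

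The held-out difference of 30.6 percentage points was 27.2 to 33.9 without a replicate, where the exact permutation p of 0.0476 was the smallest of 21 arrangements (adjusted p = 0.0952). Permuted within replicate numbers as a replicate block, it had an exact permutation p of 0.00227, the smallest of 441. Region by region, deviations of same-numbered libraries correlated between -0.0152 and 0.00948 over 21 pairs of time points. Such correlations do not register an offset common to all regions of a library. At every time point replicate 2 had the longer list, as at 16 h with 65073 against 61857 peaks. An offset shared by same-numbered libraries was not tested, and the block is given beside the main test. The other tests compare sets within each library and take no such block. Unknown depth limits every absence from a list.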

Other observations

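On chromosome X, which the rule left out, 61 of 2066 distal regions followed the same pattern of calls (2.95%, beside 3.22% on the autosomes). Within 1 kb of a protein-coding TSS, 262 autosomal regions met the rest of the rule, with a median score percentile at 16 h and 24 h of 19.7.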
